A study of Mus musculus with 8 samples.

Results

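The splicing factor and hnRNP genes described here were all genes whose platform symbol begins with Hnrnp, Hnrp, Srsf, Sfrs, Snrp, Sf3a or Sf3b. They were 44 of the 12394 genes measured, and they held 115 of the 22690 probe sets of the array. Where a gene had several probe sets, the one with the highest mean level stood for it. By class the members were 9 SR proteins, 18 hnRNPs, 5 Sm proteins, 3 other snRNP proteins and 9 subunits of the SF3 complexes. The symbol rule itself uses no measured value, but it was chosen with earlier results of these data known. Probe sets that name several genes were left out, so Hnrnpa3, Snrpd1, Snrpd2, Snrpa and Hnrnpa1l2-ps2, which lie only on such probe sets, were not analysed here, nor were Srsf7, Srsf12, Snrpf and Hnrnpa0.

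Pre-mRNA splicing removes introns in the spliceosome, which is built from small nuclear ribonucleoproteins (snRNPs) that carry a ring of Sm proteins around a short nuclear RNA. The SF3a and SF3b complexes are parts of the U2 snRNP, which recognises the branch point of an intron. SR proteins carry domains rich in serine and arginine and mostly favour the use of nearby splice sites, whereas hnRNPs coat nascent RNA and often oppose it. In T cells, Hnrnpll is known for directing the exon choice of the phosphatase CD45.

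The arrays measured RNA from sorted CD4-CD8- cells of female C57BL/6 mice aged 6 to 8 weeks, taken from the thymus (thymocytes) or from the spleen (thymus emigrants). The mice had received corn oil, or 10 µg/kg TCDD in corn oil, by intraperitoneal injection. FITC was put into the thymus on day 5 after that injection to mark its cells, and tissues were taken 24 h later. Each of the 4 groups (thymocytes with oil, thymocytes with TCDD, emigrants with oil, emigrants with TCDD) had 2 arrays, and this number limits the precision of every value. All 4 groups carried the FITC label, and no genetic change is named in the labels. The Treatment field contradicts the title for emigrants oil 1, where it names TCDD at 10 nM, and reads Dioxane 2 for emigrants oil 2. Groups here follow the titles. TCDD is the dioxin 2,3,7,8-tetrachlorodibenzo-p-dioxin, which binds and activates the aryl hydrocarbon receptor (AhR). Nothing in the labels states that the arrays within a group are separate animals or cultures, so the p-values cover the spread among these samples alone, and that spread may be technical.

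The array medians lay between 4.81 and 4.91 on the deposited log2 scale. Of the T lineage markers, Cd3e, a chain of the T cell receptor complex, lay between 8.09 and 8.91 on every array. Rag1, the recombinase of receptor gene assembly, lay between 9.33 and 10.21 in the thymocytes and at 3.89, 9.81, 5.10 and 3.75 in emigrants oil 1, oil 2, TCDD 1 and TCDD 2. Emigrants oil 2 thus stood among the thymocytes for Rag1, and the counts and medians that moved most without it are given both ways. The 10 granulocyte markers had mean levels between 5.54 and 8.35 per array, and the 6 macrophage markers between 5.76 and 7.70. In sorted bulk samples like these, fewer cells of a type and less RNA per cell cannot be told apart.

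Promoters are shown for 4 of the 5 members whose emigrant arrays all lay below their thymocyte arrays (Sf3a3, Sf3b3, Sf3b6 and Srsf6). Among genes above the median level, this order held for 11.9% of members and 9.94% of all genes. It thus does not set the members apart. Each runs from 250 bases before to 50 after the RefSeq start on GRCm38.p6, 5′ to 3′ on the gene's strand, with capitals marking the ETS core CCGGAAG or its reverse complement CTTCCGG. Sf3a3 lies at chr4:124714611-124714910 on the plus strand, Sf3b3 at chr8:110846754-110847053 on the minus strand, Sf3b6 at chr12:4817358-4817657 on the plus strand and Srsf6 at chr2:162931258-162931557 on the plus strand.
Sf3a3: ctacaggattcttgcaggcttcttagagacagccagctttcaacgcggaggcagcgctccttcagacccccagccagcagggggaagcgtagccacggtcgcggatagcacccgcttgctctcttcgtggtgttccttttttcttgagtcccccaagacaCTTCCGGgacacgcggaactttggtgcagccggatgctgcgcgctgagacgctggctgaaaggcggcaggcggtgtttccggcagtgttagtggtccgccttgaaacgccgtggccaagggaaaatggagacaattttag
Sf3b3: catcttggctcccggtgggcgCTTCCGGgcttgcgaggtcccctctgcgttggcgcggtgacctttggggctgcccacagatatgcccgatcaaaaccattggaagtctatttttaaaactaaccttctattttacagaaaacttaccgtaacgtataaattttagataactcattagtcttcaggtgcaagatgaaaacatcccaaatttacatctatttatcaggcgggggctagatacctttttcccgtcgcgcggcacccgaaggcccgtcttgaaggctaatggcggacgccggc
Sf3b6: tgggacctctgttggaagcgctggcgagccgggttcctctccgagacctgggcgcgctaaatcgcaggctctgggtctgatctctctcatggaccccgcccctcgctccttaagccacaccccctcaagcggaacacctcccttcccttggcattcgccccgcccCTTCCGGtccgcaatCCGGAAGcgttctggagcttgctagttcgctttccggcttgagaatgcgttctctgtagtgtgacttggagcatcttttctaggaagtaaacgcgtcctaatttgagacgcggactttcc
Srsf6: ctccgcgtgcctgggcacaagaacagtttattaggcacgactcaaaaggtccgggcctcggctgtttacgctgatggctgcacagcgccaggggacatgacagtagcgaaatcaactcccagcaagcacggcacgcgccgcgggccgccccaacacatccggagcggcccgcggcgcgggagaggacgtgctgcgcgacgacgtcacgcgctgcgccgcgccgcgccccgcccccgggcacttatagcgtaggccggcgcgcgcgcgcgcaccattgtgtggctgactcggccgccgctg

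Sf3a3 and Sf3b3 each held 1 ETS core in that window and Sf3b6 held 2, whereas Srsf6 held none. The AhR response core GCGTG (reverse complement CACGC) occurred 3 times in the Srsf6 window, once in that of Sf3a3 and not in the others. RefSeq promoters were matched for 39 of the 44 members, with 55 promoters in all. Sf3b4, Sf3b5, Snrpb, Hnrnpll and Hnrnpul2 had no entry. On either strand, the ETS core occurred in 36.4% of member promoters and in 8.86% of all 32851 promoters, and the GC box GGGCGG (reverse complement CCGCCC) in 67.3% against 35.7%. GCGTG occurred in 63.6% against 32.4%, CCAAT (reverse complement ATTGG) in 45.5% against 37.4%, TATAAA (reverse complement TTTATA) in 10.9% against 13.6%, and the palindrome CACGTG in 7.27% against 7.15%. The member promoters had a median GC content of 60.3% against 52.7%, and the part of this difference in these shares was not tested. Matches were counted separately for each motif, and letters of one match may lie in another. A match describes letters and not a bound site.

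The members were bright on these arrays. Their mean levels ran from 4.90 for Snrpn, an Sm protein gene best known from neurons, to 11.8 for Hnrnpc, which encodes a protein that binds uridine tracts in nascent RNA. The brightest after Hnrnpc were Hnrnpab (11.7), also an RNA-binding hnRNP, and Hnrnpdl (11.7), a relative of Hnrnpd. The dimmest after Snrpn were Sf3b5 (5.18), a small subunit of SF3b, and Hnrnpl (5.31), a relative of Hnrnpll. Brightness depends on the probes of a set, so these values do not rank transcript amounts. The mean level of 42 members lay above 5.27, the median of all genes, and 41 members lay above the array median on all 8 arrays. The spread over the 8 arrays was widest for Srsf2, with a range of 2.16, and narrowest for Hnrnpc, with a range of 0.25. The chosen probe set of 11 members has a suffix (_s_at or _x_at) that marks probes shared with related transcripts, so such values can include paralogs.

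**Figure D1:**
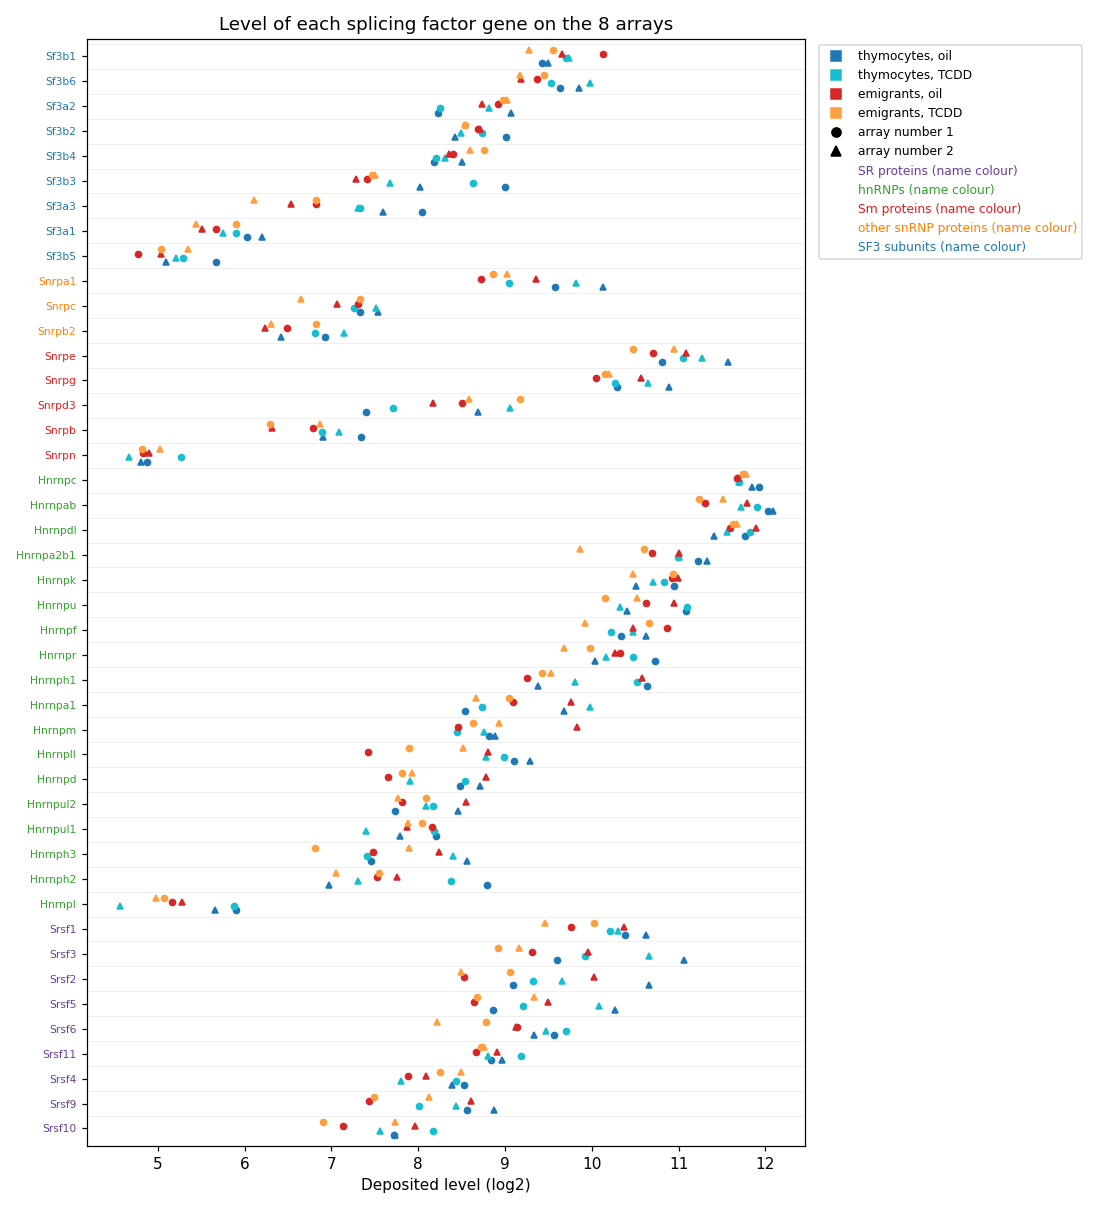
Deposited log2 level (horizontal axis) of each of the 44 genes on the 8 arrays, with colour for the group and shape for the array number. Snrpn, Sf3b5 and Hnrnpl lie at the left of their classes, and for Sf3a3, Sf3b3, Sf3b6, Snrpb and Srsf6 the 4 emigrant points lie left of the 4 thymocyte points.

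The broadest contrast in the data was between the cell sources, and it asked how cells that had left the thymus differed from those still in it. Averaged over oil and TCDD, 35 of the 44 members (79.5%) had a lower mean in the emigrants, where 45.2% of all genes did. The median log2 difference was -0.35 over the members and 0.02 over all genes. No member passed limma's test after Benjamini-Hochberg adjustment, which called 0.145% of all genes (18 genes). That total was 0 without any 1 of the thymocyte arrays, and leaving out emigrants oil 1, emigrants TCDD 2 or emigrants TCDD 1 gave 3, 2 or 60 genes. At an unadjusted p under 0.05, 12 members (27.3%) were lower in emigrants against 8.33% of all genes, and 0 were higher against 7.26%. Bright genes were called more often, and among the brighter genes tested the shares were 28.6% of members (12 of 42) against 14.2%. All 4 emigrant arrays lay below all 4 thymocyte arrays for 5 members (11.4%) against 6.04% of all genes, or 9.94% among the brighter genes. The opposite order held for 0 members against 6.87% of genes. Without emigrants oil 2 the count of members lower in emigrants with no overlap was 14 against a background of 8.88%, and without emigrants TCDD 2 it was 6 against 8.25%. This count was also higher without thymocytes TCDD 2. The count at an unadjusted p under 0.05 was lower without thymocytes TCDD 1, thymocytes TCDD 2 or emigrants TCDD 2. For these further changes the shares of all genes are not given, so they are not results about the members. Shares among the brighter genes are not given for any count with an array left out. Nor are they given for the comparisons within oil, within TCDD or of TCDD with oil. The median over the members was -0.18 without emigrants oil 1.

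Emigrants oil 2 also stood nearer to the thymocytes in the splicing genes themselves. Its median difference from the thymocyte mean over the members was -0.04, with 26 of 44 below that mean. For emigrants oil 1, TCDD 1 and TCDD 2 the medians were -0.34, -0.33 and -0.34, with 36, 38 and 36 members below. Over all genes the medians were -0.02 for emigrants oil 2 and 0.01, 0.0003 and 0.07 for emigrants oil 1, TCDD 1 and TCDD 2. The share of all genes below the thymocyte mean is not given. Emigrants TCDD 2 was the lowest of the 8 arrays for 12 members (27.3%, against 13.3% of all genes) and the highest for 0 (against 24.4%). Thymocytes oil 1 and oil 2 were the highest for 12 and 15 members (27.3% and 34.1%), against 16.7% and 11.8% of all genes.

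**Figure D2:**
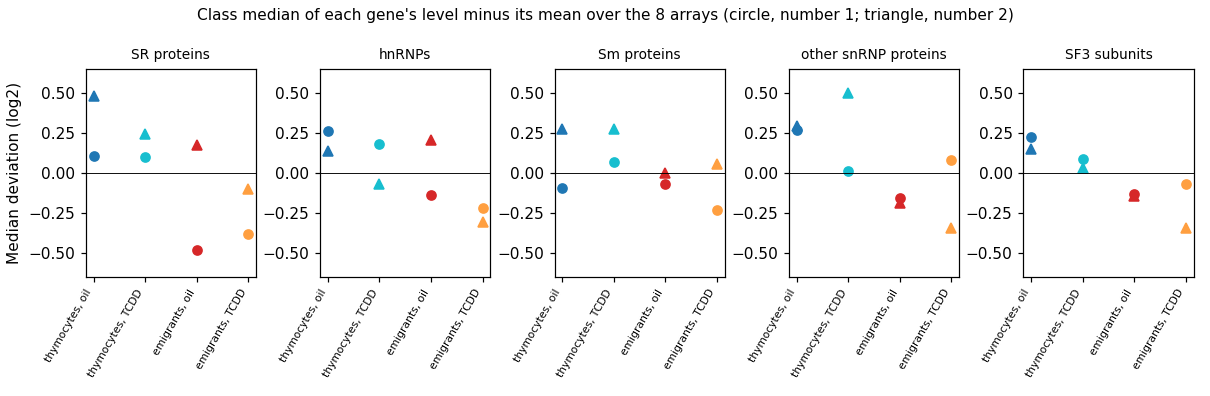
Median over each class of a gene's log2 level minus its own mean over the 8 arrays (vertical axis, log2), by group, with circles for arrays numbered 1 and triangles for arrays numbered 2. For the SR proteins 3 emigrant arrays lie between -0.48 and -0.10 and emigrants oil 2 lies at 0.18, among the thymocyte arrays at 0.10 to 0.48. For the SF3 subunits all 4 thymocyte arrays lie above all 4 emigrant arrays.

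Among the SF3 subunits, Sf3a3, which encodes the SF3a subunit that helps anchor the complex to the U2 snRNP, had the largest separation of the sources. Sf3a3 lay at 8.04 and 7.60 in oil thymocytes, 7.33 and 7.30 in TCDD thymocytes, 6.82 and 6.53 in oil emigrants, and 6.82 and 6.11 in TCDD emigrants. The groups of the 2 sources did not overlap. The averaged log2 difference was -0.998 ± 0.198 (SE), which is 2.00-fold lower in emigrants (limma adjusted p = 0.0923). A dim Sf3a3 probe set with a mean of 4.85 had a difference of 0.22, and the mean of both probe sets gave -0.39.

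Sf3b3, a large scaffold subunit of SF3b, lay at 9.003 and 8.02 in oil thymocytes, 8.63 and 7.67 in TCDD thymocytes, 7.40 and 7.29 in oil emigrants, and 7.47 and 7.50 in TCDD emigrants. The emigrant values were close together, whereas both thymocyte arrays numbered 1 stood above those numbered 2. The log2 difference was -0.92 ± 0.29 (adjusted p = 0.21). Sf3b6, the SF3b subunit that contacts the branch point adenosine, lay at 9.63 and 9.86, 9.52 and 9.98 in oil and TCDD thymocytes and at 9.36 and 9.19, 9.45 and 9.17 in oil and TCDD emigrants. Its sources did not overlap but were close, with a difference of -0.46 ± 0.15 (adjusted p = 0.222), and its other 2 bright probe sets gave -1.19 and -0.44. Sf3a1, another SF3a subunit, had a difference of -0.34 ± 0.14, or -0.22 without emigrants TCDD 2. The SF3 class was mixed, with 6 of 9 members lower and a median of -0.27, and Sf3b1, Sf3b4 and Sf3a2 had higher means in emigrants. The class median was -0.12 without thymocytes oil 1.

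The SR proteins shared one direction, since all 9 had a lower mean in emigrants, with a median of -0.55 (-0.28 without emigrants oil 1). Srsf6, a classical SR protein, lay at 9.57 and 9.33 in oil thymocytes, 9.70 and 9.48 in TCDD thymocytes, 9.14 and 9.12 in oil emigrants, and 8.78 and 8.21 in TCDD emigrants. The 2 sources did not overlap, and the TCDD emigrants were lowest. The averaged difference was -0.70 ± 0.16 (limma adjusted p = 0.115), and the other Srsf6 probe sets gave -1.07 and -0.83.

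Srsf3, the smallest SR protein, which also takes part in mRNA export, lay at 9.60 and 11.06 in oil thymocytes, 9.92 and 10.66 in TCDD thymocytes, 9.31 and 9.96 in oil emigrants, and 8.91 and 9.17 in TCDD emigrants. The arrays numbered 2 were the higher of each pair, and emigrants oil 2 overlapped the thymocytes. The difference was -0.97 ± 0.36, or -0.61 without thymocytes oil 2. Srsf1, the founding member of the family, lay between 10.20 and 10.62 in thymocytes and between 9.46 and 10.37 in emigrants, with emigrants oil 2 alone inside the thymocyte range. Its difference was -0.47 ± 0.19, and all 6 of its probe sets were lower, from -0.21 to -1.46. Srsf2 (SC35, a marker of nuclear speckles) and Srsf5, both SR proteins, had differences of -0.65 ± 0.46 and -0.57 ± 0.40. Both depended on single arrays. Srsf2 ran from -0.26 to -1.04 and Srsf5 from -0.22 to -0.92 as arrays were left out, the smaller value without thymocytes oil 2 and the larger without thymocytes oil 1. For Srsf2 the value without emigrants oil 1 was -0.28 and without emigrants oil 2 -1.03. For Srsf5 it was -0.35 both without emigrants oil 1 and without thymocytes TCDD 2. The mean of the 4 Srsf2 probe sets gave -0.14.

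**Figure D3:**
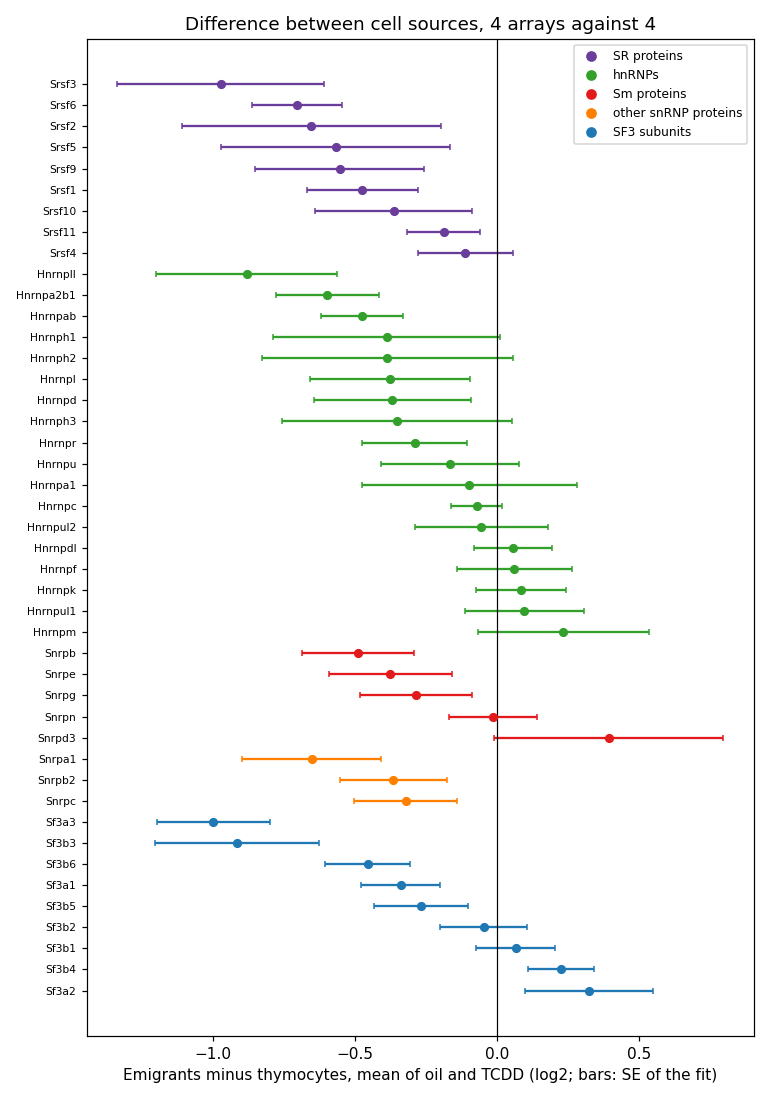
Emigrants minus thymocytes, mean of oil and TCDD (horizontal axis, log2; points, estimate; bars, SE of the limma fit), for the 44 genes by class. All 9 SR proteins lie left of 0, and Sf3a3 at -0.998 and Srsf3 at -0.97 lie farthest left.

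Of the Sm proteins, which form the ring on the spliceosomal RNAs, 4 of 5 had a lower mean in emigrants, with a median of -0.29. Snrpb, which encodes SmB, lay at 7.34, 6.90, 6.89 and 7.08 in the thymocyte arrays oil 1, oil 2, TCDD 1 and TCDD 2 and at 6.79, 6.31, 6.29 and 6.86 in the emigrant arrays. The sources were separated by the narrow gap between 6.86 and 6.89, and the difference was -0.49 ± 0.20. Snrpe and Snrpg, further ring subunits, had differences of -0.38 ± 0.22 and -0.29 ± 0.20. Without thymocytes oil 1 these were -0.57 and -0.44, and without thymocytes oil 2 -0.19 and -0.13. Snrpg was -0.15 without emigrants oil 1. Snrpn lay between 4.66 and 5.27, near the array medians, and showed no separation of groups.

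The 3 other snRNP proteins all had lower means in emigrants, with a median of -0.36. Snrpa1, the A′ protein of the U2 snRNP, lay at 9.58, 10.13, 9.04 and 9.81 in the thymocyte arrays and at 8.72, 9.36, 8.86 and 9.02 in the emigrant arrays, in the same order of arrays. Emigrants oil 2 overlapped thymocytes TCDD 1. The difference was -0.65 ± 0.25, and the 2 further probe sets gave -0.73 and -0.68. Snrpb2, its U2 partner, had a difference of -0.36 ± 0.19, or -0.23 without emigrants TCDD 2 and -0.24 without thymocytes oil 1. Snrpc, the C protein of the U1 snRNP, had -0.32 ± 0.18, or -0.15 with emigrants TCDD 2 left out and -0.49 with emigrants TCDD 1 left out.

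The hnRNPs were less uniform, with 13 of 18 lower in emigrants and a median of -0.23. That median was -0.08 without emigrants oil 1 and -0.09 without thymocytes oil 1 or thymocytes TCDD 1. Hnrnpll lay at 9.10 and 9.29 in oil thymocytes, 8.99 and 8.78 in TCDD thymocytes, 7.42 and 8.81 in oil emigrants, and 7.89 and 8.51 in TCDD emigrants. Emigrants oil 2 lay just above the lowest thymocyte array, and the others lay below. The difference was -0.88 ± 0.32, or -0.54 without emigrants oil 1, and its second probe set gave -0.83. Hnrnpa2b1, an RNA-binding protein of the core particle, lay at 11.22, 11.32, 10.99 and 11.001 in thymocyte arrays oil 1, oil 2, TCDD 1 and TCDD 2 and at 10.69, 11.001, 10.60 and 9.86 in emigrants. Emigrants oil 2 again overlapped the TCDD thymocytes. The difference was -0.60 ± 0.18, but the other bright probe sets gave -0.12, -0.15 and 0.28, and their mean with the chosen one gave -0.15.

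Hnrnpab had a difference of -0.48 ± 0.14, from 11.72 to 12.08 in thymocytes and 11.23 to 11.78 in emigrants. Of its bright probe sets, 1 ran the other way at 0.67, and the 3 others gave -0.19, -1.36 and -1.17. Hnrnpc and Hnrnpk, which binds cytosine-rich RNA, differed little between sources. Hnrnpc lay at 11.69 to 11.93 in thymocytes and 11.67 to 11.77 in emigrants, and Hnrnpk at 10.50 to 10.95 and 10.47 to 10.99. Hnrnpa1, Hnrnpd and Hnrnpu overlapped between sources as well.

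Across the probe sets of a gene, the direction was shared for 18 of the 28 members with 2 or more bright probe sets, lower in 15 and higher in 3. Of the 98 bright probe sets of the members, 76 had a lower mean in emigrants. All 19 of the measured proliferation genes had a lower mean in emigrants (median -0.998). Their mean level per array ran from 7.96 to 9.04 in thymocytes and was 7.13, 8.08, 7.55 and 7.34 in emigrants oil 1, oil 2, TCDD 1 and TCDD 2. The macrophage markers were higher in emigrants for 6 of 6 (median 0.70) and the NK cell markers for 5 of 5 measured (0.65), while 4 of 5 measured B cell markers had lower means (-0.80). Without emigrants oil 2 the macrophage median was 0.43, with 4 of 6 higher, and the NK cell median was 0.07. The 10 granulocyte markers were all lower under oil (median -1.32), but 7 of 10 were higher under TCDD (0.18), which averaged to 8 of 10 lower (-0.58). Of the 8 measured T lineage markers 7 had a lower mean in emigrants (median -0.46). Among them Ptcra, the surrogate chain of the immature T cell receptor, passed the test at -3.44 ± 0.36 (limma adjusted p = 0.0419), and Rag1 had the lowest value at -4.11 ± 1.22 (adjusted p = 0.19). The call of Ptcra was lost without any 1 of the thymocyte arrays. The part of any of these in the splicing gene differences was not tested.

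Within oil, 31 of 44 members had a lower mean in emigrants, against 49.6% of all genes, with a median of -0.26 (-0.10 without emigrants oil 1). No gene passed the adjusted limma test (0%). At an unadjusted p under 0.05, 4 members were lower (Hnrnpab, Sf3a1, Sf3a3 and Sf3b3) against 5.09% of genes and 0 were higher against 4.48%. Bright genes were called more often in the averaged contrast, and the shares among them are not given here. The number of such members fell when emigrants oil 1 was dropped and rose when emigrants oil 2 was dropped. The shares of all genes in those fits are not given. Sf3a3 had a log2 difference of -1.14 ± 0.28 (limma adjusted p = 0.29) and Sf3b3 of -1.17 ± 0.41, the latter -0.68 without thymocytes oil 1. Hnrnpll had -1.08 ± 0.45, a value set by which emigrant array is kept, since dropping oil 1 gave -0.39 and dropping oil 2 gave -1.77. Hnrnpab had -0.51 ± 0.20, or -0.28 without emigrants oil 1, and Sf3a1 had -0.53 ± 0.20. Over all probe sets of the gene, Sf3a3 was -0.39 and Sf3a1 -0.27.

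Within TCDD, 37 of 44 members had a lower mean in emigrants, against 42.8% of all genes, with a median of -0.40 (-0.26 without thymocytes TCDD 2). No gene passed the adjusted limma test (0%). At an unadjusted p under 0.05, 4 members were lower (Hnrnpa2b1, Sf3a3, Srsf3 and Srsf6) against 4.45% of genes, and Sf3b4, an SF3b subunit with RNA recognition motifs, was higher against 3.81%. The total of 5 was smaller without thymocytes TCDD 2 or emigrants TCDD 2, where the shares of all genes are not given. Shares among the brighter genes are not given here either. Srsf6 had a difference of -1.09 ± 0.22, or 2.13-fold lower (limma adjusted p = 0.345), and Srsf3 of -1.25 ± 0.52. Sf3a3 had -0.85 ± 0.28 and Hnrnpa2b1 -0.77 ± 0.26, and these were -0.50 and -0.40 without emigrants TCDD 2 and -0.38 and -0.46 over all their probe sets. Sf3b4 had 0.42 ± 0.16, from 8.21 and 8.30 in TCDD thymocytes to 8.76 and 8.60 in TCDD emigrants.

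The series was designed around TCDD, and in the thymocytes no member, and no gene (0%), passed the adjusted limma test between TCDD and oil. At an unadjusted p under 0.05 the members gave 0 lower and 0 higher, against 0.629% and 0.936% of all genes. A lower mean under TCDD was found for 30 of 44 members against 51.4% of genes, with a median of -0.10 (-0.27 without thymocytes oil 1). This count fell to 24 without thymocytes oil 2 and to 27 without thymocytes oil 1 or thymocytes TCDD 2. It was 31 without thymocytes TCDD 1. All-gene shares for these fits are not given. Both TCDD arrays lay below both oil arrays for 9 members (20.5%; Hnrnpa2b1, Hnrnpab, Hnrnpc, Hnrnpll, Hnrnpm, Sf3a1, Sf3a3, Srsf1 and Srsf9) against 11.4% of genes, and above them for 1 (Sf3b1) against 9.78%. By class the medians were -0.04 for SR proteins, -0.11 for hnRNPs, -0.03 for Sm proteins, -0.05 for other snRNP proteins and -0.12 for SF3 subunits. With single arrays left out the SR median ran from -0.36 (thymocytes oil 1) to 0.14 (thymocytes oil 2), the hnRNP median from -0.27 (thymocytes oil 1) to 0.0073 (thymocytes TCDD 2) and the Sm median from -0.30 (thymocytes oil 1) to 0.17 (thymocytes oil 2). The SF3 median was -0.20 without thymocytes oil 2. Of the measured proliferation genes 18 of 19 had a lower mean with TCDD in thymocytes (median -0.34), 11 without thymocytes oil 1 or thymocytes TCDD 2. All 10 granulocyte markers (-0.41) and 5 of 6 macrophage markers (-0.21) also had lower means, and 4 of 5 measured NK cell markers had higher ones (0.47). Without thymocytes TCDD 2 the granulocyte median was 0.36 and the NK cell median 0.07. Without thymocytes TCDD 1 the macrophage median was 0.07, with 3 of 6 markers lower. The part of these lists in the splicing gene differences was not tested.

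Sf3a3 had the thymocyte values 8.04 and 7.60 with oil and 7.33 and 7.30 with TCDD, a difference of -0.50 ± 0.28. It was -0.28 without thymocytes oil 1 and -0.24 over both probe sets. Srsf9, an SR protein, lay at 8.56 and 8.87 with oil and 8.01 and 8.43 with TCDD, a difference of -0.49 ± 0.42, or -0.28 without thymocytes TCDD 1. Snrpa1 had -0.43 ± 0.35, with values from -0.04 without thymocytes TCDD 1 to -0.81 without thymocytes TCDD 2. Dropping thymocytes oil 1 gave -0.70, and dropping thymocytes oil 2 gave -0.15. Srsf4, a long SR protein, had -0.34 ± 0.24, and this rested on thymocytes TCDD 2, without which it was -0.02. Without thymocytes TCDD 1 it was -0.66. Sf3b1, the SF3b subunit that clasps the branch point helix, was the one member with higher TCDD arrays, at 9.43 and 9.49 with oil and 9.70 and 9.74 with TCDD. Its difference was 0.26 ± 0.20 (limma adjusted p = 1).

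In the emigrants, 31 of 44 members had a lower mean with TCDD, against 44.4% of all genes, with a median of -0.19. That median was -0.33 without emigrants oil 1 and turned to 0.06 without emigrants oil 2, where only 19 of 44 members had a lower mean. The excess of lower means thus depended on emigrants oil 2, and the share of all genes without it is not given. No member and no gene (0%) passed the adjusted limma test. At an unadjusted p under 0.05, Srsf6 was lower, against 0.637% of genes, and 0 members were higher, against 0.541%. The number of such members rose without emigrants oil 1 or emigrants TCDD 1 and fell without emigrants TCDD 2. The shares of all genes in those fits are not given. The TCDD arrays lay below the oil arrays for 9 members (20.5%; Hnrnpa1, Hnrnpa2b1, Hnrnpl, Hnrnpr, Hnrnpu, Sf3b1, Sf3b2, Srsf3 and Srsf6) against 10.1% of genes. They lay above for 7 (15.9%; Hnrnpc, Sf3a2, Sf3b3, Sf3b4, Sf3b5, Snrpd3 and Srsf4) against 14.6%.

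The class medians differed in the emigrants. The hnRNPs had a lower mean with TCDD for 16 of 18 (median -0.35) and the SR proteins for 8 of 9 (-0.23). The Sm proteins (0.03), SF3 subunits (0.08) and other snRNP proteins (-0.10) had medians near 0. The Sm median was -0.16 without emigrants TCDD 2 and 0.16 without emigrants TCDD 1. Between replicates, the median level of a class had a pooled SD of 0.70 (Sm), 0.33 (hnRNPs), 0.28 (other snRNP), 0.27 (SR) and 0.08 (SF3). This SD describes levels in all 4 groups and shifts with the gene that lies in the middle of a class. It is thus not the spread of the median TCDD differences. Without emigrants oil 2 only 10 of 18 hnRNPs and 3 of 9 SR proteins had a lower mean, and the hnRNP median was -0.13. It was -0.53 without emigrants oil 1. The SR median ran from -0.63 without emigrants oil 1 to 0.18 without emigrants oil 2. The SF3 median ran from -0.10 without emigrants TCDD 1 to 0.16 without emigrants oil 1, and was 0.0029 without emigrants oil 2. Srsf6 lay at 9.14 and 9.12 with oil and 8.78 and 8.21 with TCDD, a difference of -0.63 ± 0.22, or -0.35 without emigrants TCDD 2 (limma adjusted p = 1). Hnrnpa2b1 lay at 10.69 and 11.001 with oil and 10.60 and 9.86 with TCDD, a difference of -0.62 ± 0.26 that ran from -0.25 without emigrants TCDD 2 to -0.99 without emigrants TCDD 1. All 4 of its probe sets were lower with TCDD, from -0.45 to -0.78. Sf3b1 lay at 10.13 and 9.66 with oil and 9.55 and 9.28 with TCDD, a difference of -0.48 ± 0.20, or -0.24 without emigrants oil 1. Hnrnpr, an RNA-binding hnRNP, had -0.47 ± 0.26 (-0.29 over its probe sets), Srsf4 had 0.39 ± 0.24 and Sf3b4 had 0.31 ± 0.16. When emigrants oil 1 was moved to the TCDD group by its Treatment field, emigrants oil 2 was the only emigrant array left with oil. Srsf6 was then -0.41, Sf3b1 -0.0051, Hnrnpr -0.27 and Srsf4 0.12, so each of these depended on that label. All 10 granulocyte markers had a higher mean with TCDD in emigrants (median 0.87), as did 6 of 6 macrophage markers (0.39), 6 of 6 measured erythroid markers (0.45) and 5 of 5 platelet markers (0.26, up to 1.99). Lower means were found for 6 of 8 measured T lineage markers (-0.43) and 14 of 19 proliferation genes (-0.07). The granulocyte median turned to -0.18 without emigrants TCDD 1, the macrophage median to -0.16 without emigrants TCDD 2 and -0.17 without emigrants oil 1, and the proliferation median to 0.28 without emigrants oil 2. Their part in these differences was not tested.

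**Figure D4:**
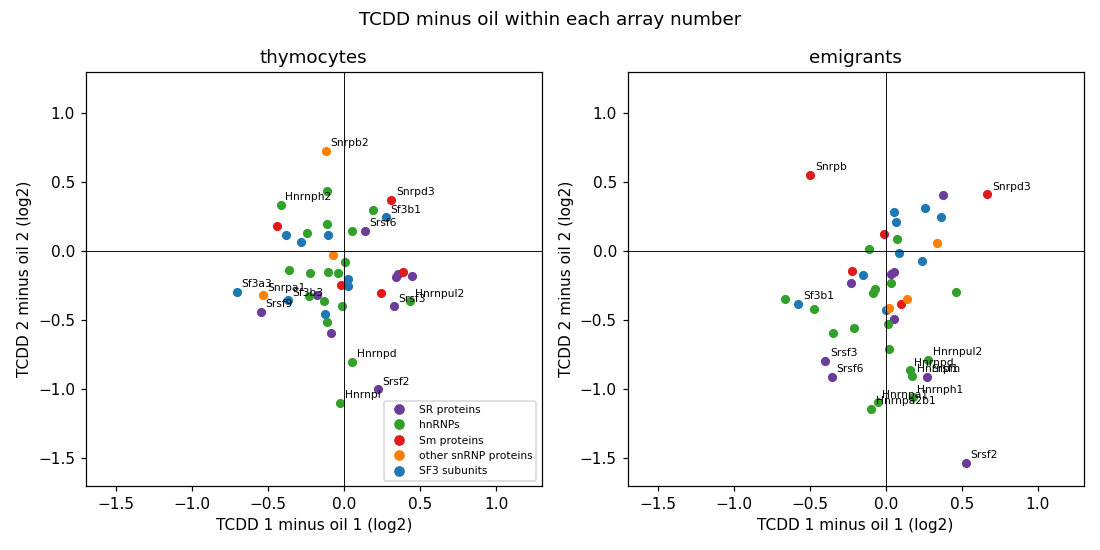
TCDD minus oil (log2) between the arrays numbered 1 (horizontal axis) and between those numbered 2 (vertical axis), for the 44 genes coloured by class. In thymocytes 18 genes (40.9%, against 28.9% of all genes) lie at the lower left of the origin and 5 (11.4% against 25.7%) at the upper right. In emigrants these are 14 (31.8% against 22%) and 8 (18.2% against 26.9%). The sign agreed between numbers for 52.3% of members against 54.6% of all genes in thymocytes, and 50% against 48.9% in emigrants, so agreement does not set the members apart.

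The difference between these TCDD responses (emigrants minus thymocytes) passed the adjusted limma test for no member and no gene (0%). At an unadjusted p under 0.05, Sf3b1 and Srsf6 were lower, against 0.888% of genes. Sf3b1 had a difference of -0.74 ± 0.28 and Srsf6 of -0.77 ± 0.31, the latter -0.49 without emigrants TCDD 2 and -0.48 over its 3 probe sets. With emigrants oil 1 grouped by its Treatment field, that of Sf3b1 was -0.27. Srsf4 had 0.73 ± 0.34, or 0.41 without thymocytes TCDD 2 and 0.46 with the Treatment field. The count of 2 fell without thymocytes oil 1, oil 2 or TCDD 2, and without emigrants oil 1 or TCDD 2. The shares of all genes in those fits are not given. The median over the members was -0.09, or -0.28 without emigrants oil 1, 0.06 without thymocytes oil 1 and 0.04 without emigrants oil 2.

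In the thymocytes the arrays of a group often differed more from each other than TCDD differed from oil. The difference between numbers 2 and 1 had the same sign with oil and with TCDD for 35 of 44 members (79.5%, against 75.6% of all genes), and it exceeded the TCDD difference in size for 31 (70.5% against 72.2%). Its median size was 0.33, against 0.14 for TCDD. Hnrnph2, an hnRNP that binds runs of guanine, lay at 8.79 and 8.37 on the thymocyte arrays numbered 1 and at 6.97 and 7.30 on those numbered 2. Srsf5 lay at 8.86 and 9.20 against 10.27 and 10.08. In both cases the numbers were far apart and the treatments close. In the emigrants the same sign held for 33 members (75.0% against 59.6%), with median sizes of 0.29 between numbers and 0.23 for TCDD. The 3′ minus 5′ difference of the actin control probe sets was 4.12 and 4.31 on the thymocyte arrays numbered 1 and 3.12 and 3.06 on those numbered 2. In the emigrants it was 3.92 and 4.68 against 3.34 and 3.79. For the Gapdh control it was 6.23 and 5.90 against 4.97 and 4.78 in the thymocytes, but 4.81 and 4.97 against 4.91 and 5.32 in the emigrants, where the arrays numbered 2 were the higher. The labels do not say what the numbers share, and the part of RNA quality in the differences between numbers was not tested.

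**Figure D5:**
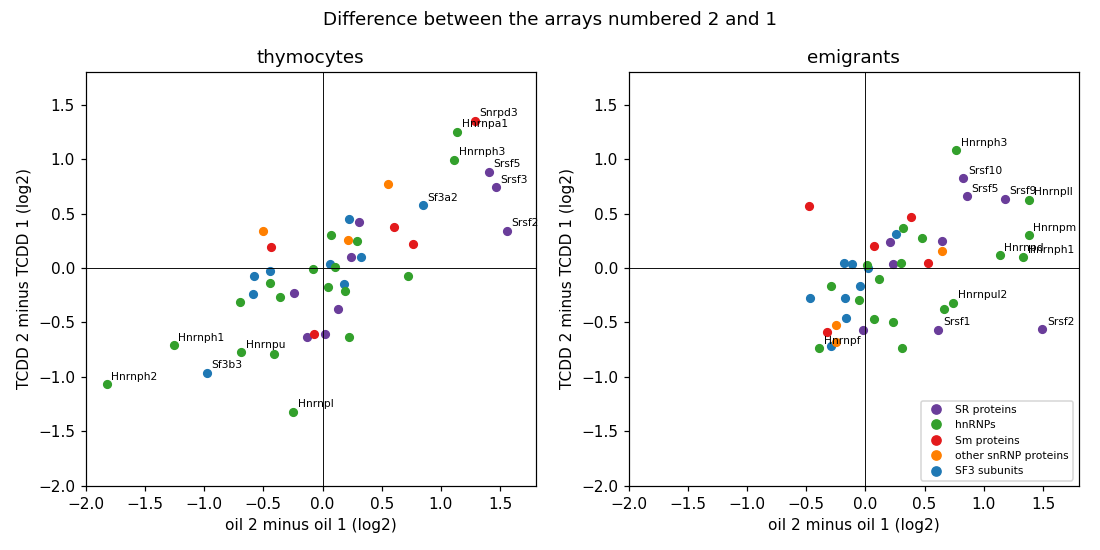
Difference between the arrays numbered 2 and 1 (log2) with oil (horizontal axis) and with TCDD (vertical axis), for the 44 genes coloured by class. In thymocytes 35 of the 44 genes have the same sign on both axes, from Hnrnph2 at the lower left to Snrpd3 at the upper right, and in emigrants 33.

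Other parts of the spliceosome, taken from lists outside the symbol rule, also had mostly lower means in emigrants averaged over treatments, where 45.2% of all genes had a lower mean and 8.33% were lower at an unadjusted p under 0.05 (14.2% of the brighter genes). Of 26 measured proteins of the U1, U2, U5 and tri-snRNP particles, 20 were lower (median -0.43), 12 of them at an unadjusted p under 0.05. Lsm3, a ring protein of the U6 snRNP, lay between 9.17 and 9.39 in thymocytes and between 7.88 and 8.34 in emigrants, a difference of -1.18 ± 0.15 (limma adjusted p = 0.0542). Snrnp40, a U5 protein, lay between 8.10 and 8.46 and between 6.70 and 7.39, a difference of -1.09 ± 0.16 (adjusted p = 0.0602). Ddx39b, a helicase of U2 recruitment and mRNA export, lay between 8.79 and 9.94 and between 8.04 and 8.43, a difference of -1.23 ± 0.17 (adjusted p = 0.0542). Clns1a, an assembly chaperone of Sm proteins, lay between 10.89 and 11.10 and between 9.96 and 10.35, a difference of -0.77 ± 0.11 (adjusted p = 0.0542). For each of these 4 genes the sources did not overlap. With brighter genes alone Lsm3, Ddx39b and Snrnp40 passed the test (limma adjusted p = 0.0445, 0.0445 and 0.0498), as they did with averaged probe sets (limma adjusted p = 0.0421, 0.0421 and 0.0444). All 4 genes passed with the replicate block over all arrays (limma adjusted p = 0.0401 for each), as did Bud31, a protein of the activated spliceosome (-1.14 ± 0.30, adjusted p = 0.144, or 0.0386 with the block). That block called more genes in all. It treats same-numbered arrays of both sources as alike, yet their deviations correlated across sources only from -0.097 to 0.109. Lsm3 passed with the Treatment field as well, and Snrnp40 without emigrants TCDD 1, but each of those fits left a group with a single array. The remaining lists had smaller medians. Lower means were found for 9 of 13 proteins of 3′ splice site recognition (-0.18), 16 of 20 of the Prp19-associated complex and catalytic steps (-0.16), 11 of 20 SR kinases and SR-related proteins (-0.03), 20 of 30 tissue-regulated splicing regulators (-0.20) and 7 of 10 snRNP assembly factors (-0.39).

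Of these lists, Prpf39 and Ptbp2 had the 2 largest differences between the TCDD response in emigrants and that in thymocytes. Prpf39, a protein of the U1 snRNP, lay at 3.95 and 4.06 with oil and 4.97 and 5.47 with TCDD in thymocytes, and at 4.93 and 5.79 with oil and 4.48 and 5.12 with TCDD in emigrants. It was dim with oil in thymocytes, below the array medians, and its emigrant arrays overlapped. The differences were 1.21 ± 0.36 and -0.56 ± 0.36, and that between them was -1.77 ± 0.50 (limma adjusted p = 1 for all of them). Dropping oil 2 took the emigrant value to -0.13 and dropping TCDD 1 to -0.24, and the mean over the Prpf39 probe sets gave 0.41, -0.18 and -0.59. Ptbp2, a polypyrimidine tract binding protein, lay at 6.12 and 5.78 with oil and 6.61 and 6.69 with TCDD in thymocytes, and at 6.08 and 6.43 with oil and 5.20 and 5.31 with TCDD in emigrants. The TCDD arrays lay above the oil arrays in thymocytes (0.70 ± 0.19) and below them in emigrants (-1.004 ± 0.19), and the difference of these was -1.71 ± 0.27 (limma adjusted p = 1 for all of them). The mean over both Ptbp2 probe sets gave 0.44, -0.50 and -0.93. Of the 30 tissue-regulated regulators measured, 27 (22 without emigrants oil 2) had a lower mean with TCDD in emigrants (median -0.23), against 44.4% of all genes, and 14 in thymocytes (0.03), against 51.4%.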

How the data were processed

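The authors deposited log2 values of 8 Affymetrix arrays, 2 in each of 4 groups, for 22690 probe sets. The submitters' processing notes name RMA, with no version; other steps are not given in the sources used here. RMA evens out the distributions of the arrays, so a shift common to most genes would not be seen, and the RNA had been amplified, per the labels' protocols. Groups came from the titles. Probe sets with 1 symbol (20393) were kept and named through gene identifiers (20364 found) in RefSeq's GRCm38.p6 gene table; 691 with several symbols and 1606 with none were left out.

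All 12394 genes were fitted by group means with limma 3.58.1 in R 4.3.3 (lmFit, eBayes, two-sided, 4 residual degrees of freedom) and adjusted by Benjamini-Hochberg over all genes at 0.05. The code was tested on simulated data. Named genes were, per comparison and class, the 3 brighter members with the smallest p, with a fixed list and the 3 smallest p of each other spliceosome list; the printed differences were narrowed from these after the values were seen. The members and lists were chosen with earlier results of these data known. Alternatives were repeated quantile normalization, median centring, brighter genes alone, averaged or single probe sets, a trend and robust prior, the replicate number as a block, the compared arrays alone, the Treatment field, and each array left out. A comparison of protein sequences was planned and not run, since no protein table was used here.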

Additional observations from a re-analysis of the deposited data

Results flagged for a closer look

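For Sf3b1 the TCDD arrays were both higher than the oil arrays in thymocytes (9.70 and 9.74 against 9.43 and 9.49) and both lower in emigrants (9.55 and 9.28 against 10.13 and 9.66). The difference between these TCDD differences was -0.74 ± 0.28 (limma adjusted p = 1). Its second bright probe set gave 0.61 in thymocytes and -0.45 in emigrants, but there the TCDD and oil arrays overlapped in both sources. In thymocytes that probe set lay at 7.83 and 6.71 with oil and 7.27 and 8.49 with TCDD. In emigrants it lay at 9.05 and 7.31 with oil and 8.48 and 6.97 with TCDD.

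For Hnrnpc the order was the reverse, with TCDD arrays at 11.70 and 11.69 against 11.93 and 11.85 in thymocytes and at 11.74 and 11.77 against 11.67 and 11.69 in emigrants. The difference was 0.27 ± 0.18 (limma adjusted p = 1), and 0.03 over its 2 probe sets. Opposite non-overlap of this kind was found for 2 of 44 members (4.55%) and for 314 of the 12394 genes (2.53%). Groups of 2 arrays are too small for a test of single outlying arrays.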

How the results depend on the processing

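Of the 60 gene differences followed, 25 moved by over 1.5 times with some array left out, and 1 reversed: Hnrnpc with TCDD in emigrants was -0.0086 with averaged probe sets. The cause of the changes below was not tested unless stated, and with 2 arrays a group each value rests on few samples. No member passed the adjusted threshold except under the replicate block. In lists, "p members" are members at an unadjusted p under 0.05, and "source" is emigrants minus thymocytes. The shares of all genes under each alternative are not given. Counts of p members and of non-overlapping members below are thus not results about the members. The Treatment field leaves emigrants oil 2 as the only array of the emigrants with oil. p members for TCDD in emigrants (1) were 0 with quantile normalization, the trend prior or the compared arrays alone, 3 with centring, 5 with the Treatment field and 6 probe sets. For the difference of TCDD responses (2) they were 0 with brighter genes or the trend prior, 1 with quantile normalization, averaging or the Treatment field, and 6 probe sets. For source under oil (4) they were 2 with brighter genes and 12 probe sets; under TCDD (5), 3 with the compared arrays and 22 probe sets; averaged (12), 7 with the trend prior and 30 probe sets. More probe sets than genes enter these last counts.

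Genes past the adjusted threshold for source averaged (18) were 96 with brighter genes, where fewer are tested, 69 with averaging and 75 with the Treatment field. For source under TCDD (0) they were 2 with quantile normalization, 1 with the trend prior and 18 with the Treatment field; for source under oil (0), 1 with averaging and 3 with the Treatment field, which gave 1 for TCDD in emigrants and 1 for the difference of responses. Non-overlapping members (5) were 9 with averaging. With the Treatment field, medians were -0.62 for SR with TCDD in emigrants, -0.10 for all members, -0.35 for SF3 and -0.10 for SR in source under oil, -0.20 for all members in source averaged, and -0.26 for all members and -0.55 for SR in the difference of responses. The SF3 median for source under oil (-0.47) was -0.24 with brighter genes, -0.27 with averaging and -0.12 over probe sets, and for the difference of responses (0.29) 0.17 with averaging and 0.078 over probe sets. Over probe sets source under oil was -0.13 for all members and -0.80 for other snRNP proteins, and source averaged was -0.65 for the latter.

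With each array left out in turn, the number of p members changed in every comparison. Genes past the threshold ran from 0 to 2 for TCDD in emigrants (2 without emigrants TCDD 2), 0 to 10 for source under TCDD (10 without emigrants TCDD 1, 3 without emigrants oil 1 or oil 2) and 0 to 60 averaged. Non-overlapping members ran from 5 to 14. Medians over all members ran from -0.27 to -0.10 for TCDD in thymocytes, -0.33 to 0.057 in emigrants, -0.39 to -0.10 for source under oil, -0.40 to -0.26 under TCDD, -0.35 to -0.18 averaged and -0.28 to 0.057 for the difference of responses. For SF3 they ran from -0.20 to -0.11, -0.10 to 0.16, -0.47 to -0.24, -0.38 to -0.077, -0.30 to -0.12 and 0.13 to 0.38 in that order. For SR they ran from -0.36 to 0.14, -0.63 to 0.18, -0.74 to -0.10 under oil, -0.70 to -0.28 averaged and -0.57 to 0.23 for the difference, and for other snRNP proteins in the difference from -0.37 to 0.19 (0.19 without emigrants TCDD 2).

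The same-numbered arrays are not stated to share anything. Their deviations correlated across genes at 0.759 between oil and TCDD thymocytes and 0.495 in emigrants, and from -0.097 to 0.109 across sources. With the replicate block over all arrays, p members were 1, 3, 7 and 9 for TCDD in thymocytes, TCDD in emigrants, source under oil and source under TCDD, and 200 genes with 1 member (Sf3a3, limma adjusted p = 0.0416) passed for source averaged. With the replicate block within each source, p members were 4, 8, 13, 19, 19 averaged and 4 for the difference of responses. Members past the threshold were 3, 2 and 11 for source under oil, under TCDD and averaged, and genes were 819, 462 and 1928, with 1 for TCDD in thymocytes. That block takes the spread between numbers out of the error, so its source p-values leave out replicate spread.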

Other observations

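Besides Ptbp2, 2 more splicing regulators outside the symbol rule were among the lowest by p with TCDD in emigrants. Sfpq, a nuclear RNA-binding protein of paraspeckles, lay at 7.68 and 8.06 with oil and 7.35 and 6.86 with TCDD, a log2 difference of -0.76 ± 0.22 (-0.47 over its probe sets). Rbm39, a U2AF-related splicing factor, lay at 7.52 and 7.83 with oil and 7.08 and 6.62 with TCDD, a difference of -0.83 ± 0.34. In thymocytes Rbm39 lay at 7.23 and 6.44 with oil and 7.68 and 7.13 with TCDD, a difference of 0.57 that ran from 0.17 without thymocytes oil 2 to 0.96 without thymocytes oil 1, and was 0.29 without thymocytes TCDD 1. None of these passed the adjusted limma test.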
